A study of Homo sapiens with 15 samples.

Results

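The NRF2 antioxidant genes followed here were 9 protein-coding genes, chosen by symbol and found by their Ensembl identifiers among 61552 genes counted in MDA-MB-468 cells. They comprise the transcription factor NRF2 itself (gene NFE2L2), its repressor KEAP1, and the targets NQO1, HMOX1, GCLC, GCLM, TXNRD1, SRXN1 and OSGIN1. All 9 passed the filter on low counts in every comparison. The cells, MDA-MB-468, are an established human line from a basal breast cancer with high EGFR. PolyA RNA of 15 libraries was sequenced, 3 in each of 5 groups. In the drug experiment, cells went without serum for 12 h, received EGF at 10 ng/mL, and were given no drug (EGF), cSNX1.3 at 10 uM, or erlotinib at 15 uM for 12 h. cSNX1.3 is a peptide directed at the contact of EGFR with Sorting Nexin 1, which EGFR uses on its way to the nucleus, and erlotinib inhibits the EGFR tyrosine kinase. In the line experiment both groups carried an IPTG-inducible shRNA against endogenous EGFR and a GFP-tagged EGFR, which was wildtype in the WT line and mutated in its nuclear localization sequence in the ΔNLS line. By the methods of the study both lines were kept in 1 mM IPTG and were also given EGF, at a dose and for a time not stated for them in the sources used here. Whether each line was 1 clone, and whether the libraries came from separate cultures, was not given in the sources used here, so p-values measure the spread between these libraries, which may be technical.

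NRF2 is held at a low level in unstressed cells because KEAP1 brings it to a ubiquitin ligase that contains CUL3, and oxidants or electrophiles that modify KEAP1 let NRF2 accumulate. It then pairs with a small MAF protein and binds antioxidant response elements beside genes for glutathione synthesis, thioredoxin reduction, quinone detoxification and haem breakdown. Control of NRF2 is largely at the protein level, which RNA counts do not measure, and a lower level in a bulk library cannot tell fewer expressing cells from less RNA per cell.

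The antioxidant response element was searched as the letters TGACNNNGC on both strands of RefSeq promoter windows (GRCh38.p14) that reach from 250 bases before to 50 bases after a start site. Of the members, 8 had at least 1 window, and HMOX1 had none. The core occurred in 3 of these 8 members, in 4 of the 11 windows of the 8, against 13.3% of all 35116 windows. GCLM and KEAP1 held the same 9 letters on the strand of the gene. KEAP1 also held TGACACGGC, and TXNRD1 held 3 matches, each with other letters than the shared ones, of which 2 are printed. These matches are printed as description only. With erlotinib GCLM and KEAP1 rose and TXNRD1 did not, but NFE2L2, NQO1 and GCLC, whose windows held no core, rose too. A link between these letters and the changes was not tested. The AP-1 site, TGANTCA on both strands, can overlap the element in letters. It occurred in 7.71% of windows and, among members, in OSGIN1. Capitals mark the match, and each sequence is written 5′ to 3′ on the strand of its gene.
GCLM, chr1:93909446-93909474, minus strand, partly in an annotated exon: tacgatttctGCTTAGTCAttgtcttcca
KEAP1, chr19:10502784-10502812, minus strand, in an annotated exon: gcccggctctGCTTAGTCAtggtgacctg
TXNRD1, chr12:104215670-104215698, plus strand, upstream of the annotated gene: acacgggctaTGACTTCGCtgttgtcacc
TXNRD1, chr12:104286920-104286948, plus strand, at a start site inside the gene and in an annotated exon: gtggatttctGCTTTGTCAttctgactct
OSGIN1, chr16:83953133-83953159, plus strand, inside the gene and in no annotated exon: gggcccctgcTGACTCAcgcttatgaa
When TGAGNNNGC was also accepted, 6 members and 29.1% of all windows held a match. A match is a description of letters in a short window, and no match here says nothing of elements farther away.

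Library totals ran from 22915676 to 35900649 counts (median 27846664). All 6 epithelial markers and all 3 basal keratins were detected in every group, PGR was at 0 in every library and ESR1 lay between 2.75 and 8.39 CPM (counts scaled to a common library size by TMM). EGFR was at 4750 CPM with EGF, 1346 CPM in the WT line and 1722 CPM in the ΔNLS line, and its counts do not separate endogenous from introduced EGFR. Libraries also differed in how GC-rich genes (over 58.17% GC in the canonical transcript) stood against GC-poor genes (under 40.91%). In each library, log2 values were centred on each gene's mean, and the median of GC-poor genes was subtracted from that of GC-rich genes. This difference was -0.45 to 0.12 in the erlotinib libraries, 0.11 to 0.13 with EGF and 0.17 to 0.31 with cSNX1.3. It was -0.26 to -0.20 in the WT line and -0.11 to 0.20 in the ΔNLS line. Its part in the results was not tested except by the GC and length offsets named beside them.

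In the annotation of GRCh38, KEAP1 lies at chr19:10486125-10503558, NQO1 at chr16:69706996-69726668, GCLC at chr6:53497341-53616970, GCLM at chr1:93885199-93909456 and SRXN1 at chr20:646615-653200, all on the minus strand. HMOX1 at chr22:35380361-35394214, TXNRD1 at chr12:104215779-104350307 and OSGIN1 at chr16:83931311-83966332 are on the plus strand. Per length, KEAP1 had the highest level of the members and OSGIN1 the lowest. Over all 15 libraries and with exon-union lengths, KEAP1 averaged 281 ± 73.5 TPM (counts per length, scaled to a fixed total, ± SD), NQO1 198 ± 54.0, TXNRD1 93.8 ± 8.53 and GCLM 54.8 ± 14.4. NFE2L2 averaged 37.4 ± 11.8 TPM, HMOX1 27.8 ± 10.4, GCLC 24.6 ± 4.35, SRXN1 19.7 ± 9.34 and OSGIN1 5.73 ± 1.10. The place of NFE2L2 depended on the length used, because its annotated exons together span 14975 bases and its canonical transcript 2446, with which it averaged 126 TPM. TXNRD1 was the steadiest of the members across the 5 groups, and SRXN1 varied most within groups.

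**Figure D1:**
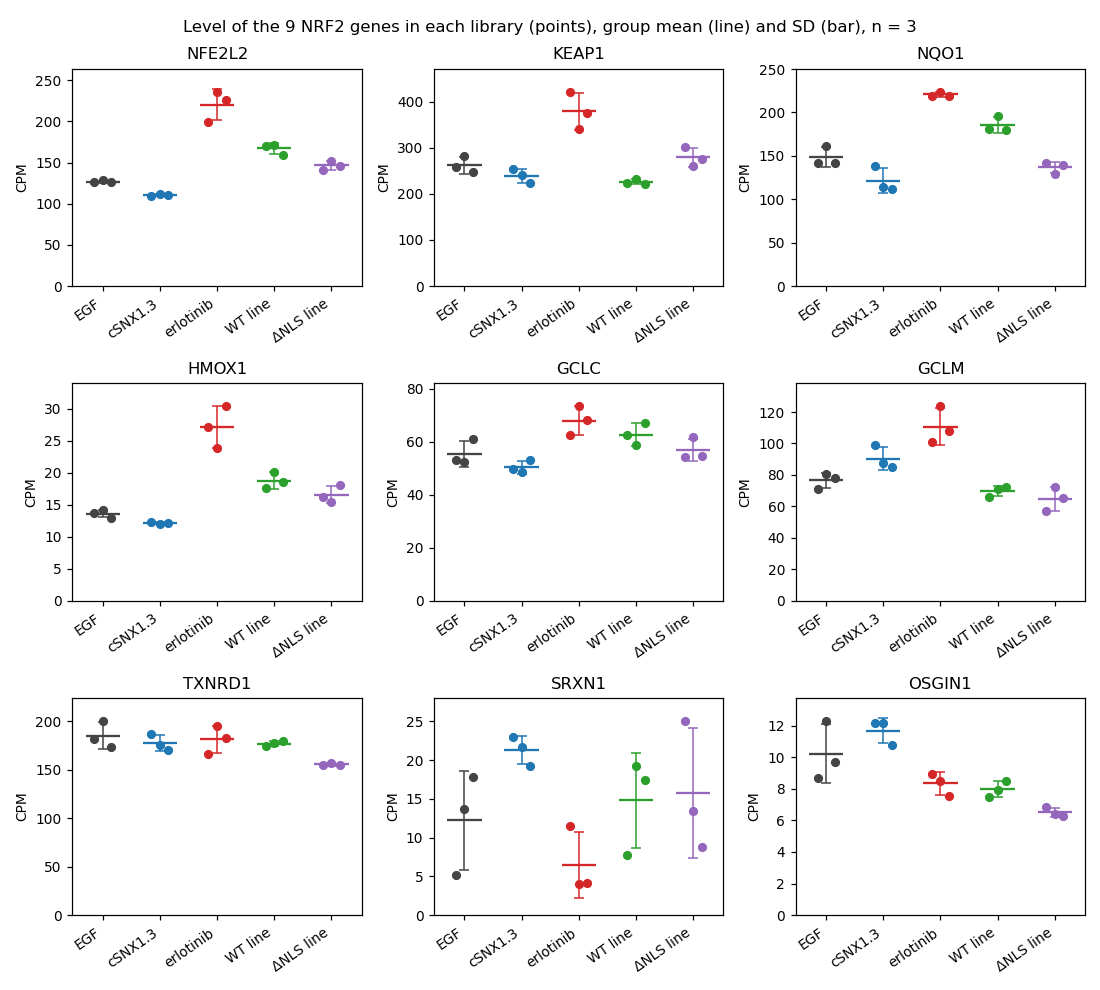
Level of each of the 9 NRF2 genes in CPM (linear axis from 0) in the 3 libraries of each of 5 groups. Points are libraries, lines are group means and bars are SD. The erlotinib libraries lie above all EGF libraries for NFE2L2, KEAP1, NQO1, HMOX1, GCLC and GCLM, TXNRD1 is nearly level, and SRXN1 ranges from 4.0 to 25.1 CPM with wide spread inside groups. The share of all genes whose libraries separate in this way was not counted.

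Erlotinib vs. EGF asked what kinase inhibition does to these genes. Of the 9 members, 6 passed the quasi-likelihood test of edgeR at a Benjamini-Hochberg adjusted p under 0.05 and are termed called, and all 6 were higher with erlotinib. Among all 15738 genes tested, 44.0% were called and 22.8% were called and higher, so a call as such was common in this comparison. The median log2 fold change was 0.55 over the members and 0.01 over all genes tested. The 6 were the factor and its repressor, the quinone reductase NQO1, the haem oxygenase HMOX1, and both subunits of glutamate-cysteine ligase.

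NFE2L2, on chromosome 2 from 177218667 to 177392756 (GRCh38, minus strand), stood at 126, 128 and 126 CPM with EGF and at 199, 236 and 226 CPM with erlotinib. Every erlotinib library was above every EGF library and above all libraries of the other groups. The log2 fold change was 0.82 (standard error 0.08, edgeR's adjusted p = 1.48e-06), a level 1.77 times that with EGF. NFE2L2 shares 3509 of its 14975 exon bases with HNRNPA3 on the opposite strand, and the counting did not use strand. Reads that fit both genes could have been left out or counted for either gene, and their treatment was not stated. KEAP1, which holds NRF2 for degradation, stood at 258, 282 and 247 CPM with EGF and at 421, 341 and 376 CPM with erlotinib (log2 fold change 0.56, standard error 0.10, adjusted p = 0.00024). These groups did not overlap, and the factor and its repressor thus rose together.

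Among the targets, HMOX1 rose most. HMOX1 breaks haem down to biliverdin, iron and carbon monoxide. It stood at 13.6, 14.1 and 13.0 CPM with EGF and at 27.2, 23.9 and 30.4 CPM with erlotinib, which is 1.02 as log2 fold change (standard error 0.11, edgeR's adjusted p = 1.95e-06), and the groups were far apart. NQO1, which reduces quinones directly to hydroquinones, stood at 142, 162 and 141 CPM with EGF and at 219, 224 and 219 CPM with erlotinib, and the log2 fold change was 0.60 (standard error 0.09, adjusted p = 0.000107). The erlotinib libraries lay close to each other and above every library of the other groups.

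GCLC and GCLM encode the catalytic and the modifier subunit of the enzyme that starts glutathione synthesis. GCLM stood at 71.2, 80.7 and 77.9 CPM with EGF and at 101, 124 and 108 CPM with erlotinib (log2 fold change 0.55, standard error 0.10, edgeR's adjusted p = 0.000259). GCLC stood at 52.9, 52.4 and 61.0 CPM with EGF and at 62.4, 73.2 and 68.0 CPM with erlotinib (0.31, standard error 0.10, adjusted p = 0.0142). The EGF and erlotinib libraries did not overlap for either gene, but the highest EGF library of GCLC was close to the lowest erlotinib library. The call of GCLC was lost without erlotinib replicate 2 (0.26, edgeR's adjusted p = 0.0547), without EGF replicate 1 (0.28, adjusted p = 0.0640) and without EGF replicate 2 (0.26, adjusted p = 0.0582).

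The other 3 members did not pass the test. TXNRD1, the cytosolic thioredoxin reductase, stood at 182, 200 and 173 CPM with EGF and at 167, 195 and 183 CPM with erlotinib, which is -0.01 as log2 fold change (standard error 0.09, edgeR's adjusted p = 0.970). OSGIN1, an oxidative stress induced growth inhibitor, stood at 8.68, 12.3 and 9.69 CPM with EGF and at 8.96, 8.52 and 7.54 CPM with erlotinib (-0.27, standard error 0.14, adjusted p = 0.126). The groups overlapped for both genes. Reads of OSGIN1 that also fit MLYCD, which shares 457 exon bases on the same strand, could likewise have been left out or counted for either gene.

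SRXN1, which restores overoxidized peroxiredoxins, had the widest spread. It stood at 5.24, 13.8 and 17.8 CPM with EGF and at 11.5, 4.0 and 4.14 CPM with erlotinib, which is -0.86 as log2 fold change (standard error 0.45, edgeR's adjusted p = 0.15). EGF replicate 1 was near the low erlotinib libraries, and erlotinib replicate 1 was near the middle EGF library. Without erlotinib replicate 1 SRXN1 was called lower (log2 fold change -1.57, edgeR's adjusted p = 0.0160), and likewise without EGF replicate 1 (-1.22, adjusted p = 0.0327). Without EGF replicate 3 the value was -0.48 (adjusted p = 0.467). SRXN1 shares 2292 of its 2528 exon bases with a readthrough gene on the same strand, to which only 47 counts were assigned over all libraries, against 6148 for SRXN1, and reads that fit both genes could have been left out.

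**Figure D2:**
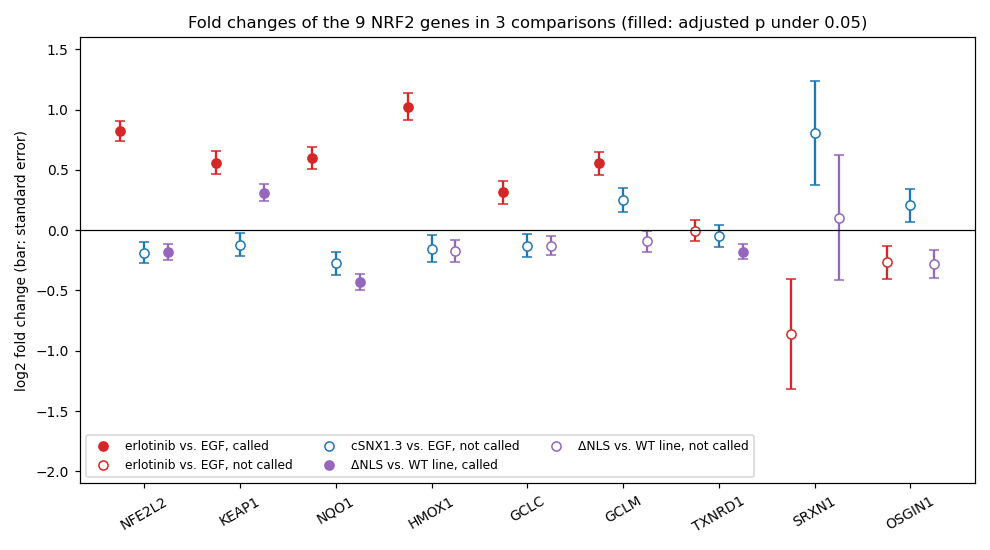
Fitted log2 fold changes (points) with standard errors (bars) of the 9 NRF2 genes for erlotinib vs. EGF, cSNX1.3 vs. EGF and ΔNLS vs. the WT line. Filled points passed an adjusted p of 0.05: 6 genes with erlotinib, all above 0, none with cSNX1.3, and 4 in the ΔNLS line, of which KEAP1 is the one above 0.

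cSNX1.3 vs. EGF asked what a peptide directed at nuclear EGFR transport does to the same genes. The EGF libraries received no control peptide, and the study holds it probable that cSNX1.3 also affects other protein contacts. None was called: 0 of 9 members passed edgeR's test and 0 of 9 passed DESeq2. Of all 15738 genes 6.07% were called, 3.38% higher and 2.69% lower. An unadjusted p under 0.05 in edgeR was reached by 3 of 9 members, NQO1, GCLM and NFE2L2, and by 3044 of all 15738 genes (19.3%). The comparison shares its EGF libraries with erlotinib vs. EGF, so the values of the 2 are given side by side and not as separate evidence.

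NQO1 stood at 138, 114 and 112 CPM with cSNX1.3 against 142, 162 and 141 CPM with EGF, which is -0.28 as log2 fold change (standard error 0.09, edgeR's adjusted p = 0.107), where erlotinib gave 0.60. The cSNX1.3 libraries all lay below the EGF libraries, replicate 1 only just. Without cSNX1.3 replicate 1 the fold change was -0.38 and passed the test (edgeR's adjusted p = 0.0163). NFE2L2 stood at 110, 112 and 110 CPM with cSNX1.3, all below the 126 to 128 CPM of EGF, and the log2 fold change was -0.19 (standard error 0.08, adjusted p = 0.238).

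GCLM stood at 98.8, 87.4 and 84.8 CPM with cSNX1.3, above the 71.2 to 80.7 CPM of EGF (log2 fold change 0.25, standard error 0.10, edgeR's adjusted p = 0.156). With offsets for GC content and transcript length the value was 0.29 and was called (adjusted p = 0.0331). Its canonical transcript has 37.3% GC, which is low among expressed genes. HMOX1 stood at 12.3, 11.9 and 12.1 CPM, a little below EGF, and the log2 fold change was -0.15 (standard error 0.11, adjusted p = 0.506). The values were -0.12 for KEAP1, -0.13 for GCLC, -0.05 for TXNRD1, 0.21 for OSGIN1 and 0.81 for SRXN1, with adjusted p between 0.355 and 0.837. SRXN1 stood at 23.0, 21.7 and 19.3 CPM with cSNX1.3, above every EGF and erlotinib library, and did not pass the test (0.81, edgeR's adjusted p = 0.355). With 1 library left out, its value ran from 0.45 without EGF replicate 1 to 1.19 without EGF replicate 3 and was not called in any such fit. That of OSGIN1 ran from 0.11 without EGF replicate 1 to 0.34 without EGF replicate 2. That of GCLC was -0.05 without EGF replicate 3 and that of KEAP1 -0.07 without cSNX1.3 replicate 3, again not called.

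The drugs were also compared directly. In cSNX1.3 vs. erlotinib 8 of 9 members were called, against 56.1% of all genes tested. Lower with cSNX1.3 were 6 members, where 28.5% of all genes were lower, and higher were 2 members, where 27.6% of all genes were higher. The log2 fold change was -1.18 for HMOX1 (standard error 0.11), NFE2L2 -1.01 (0.09), NQO1 -0.87 (0.10), KEAP1 -0.68 (0.10), GCLC -0.44 (0.10) and GCLM -0.30 (0.10). The 2 higher members were SRXN1, with 1.67 (standard error 0.45, edgeR's adjusted p = 0.00906), and OSGIN1, with 0.47 (0.14, adjusted p = 0.00765).

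TXNRD1 again did not pass, at -0.04 (standard error 0.09, edgeR's adjusted p = 0.711). The call of SRXN1 was lost without a filter on low counts (1.67, adjusted p = 0.0858) and without cSNX1.3 replicate 1 (1.61, adjusted p = 0.0566). That of GCLM was lost with GC and length offsets (-0.15, adjusted p = 0.125) and without cSNX1.3 replicate 2 (-0.28, adjusted p = 0.0544), cSNX1.3 replicate 3 (-0.26, adjusted p = 0.0639) or erlotinib replicate 2 (-0.22, adjusted p = 0.0656).

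ΔNLS vs. the WT line asked what the mutation of the EGFR nuclear localization sequence does. Of the 9 members 4 were called by edgeR's test, close to the 41.4% of all 15805 genes tested. NQO1, NFE2L2 and TXNRD1 were lower in the ΔNLS line, where 21.0% of all genes were lower, and KEAP1 was higher, where 20.4% were higher. The median over the members was -0.17, against 0.01 over all genes.

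NQO1 stood at 181, 196 and 180 CPM in the WT line and at 142, 129 and 139 CPM in the ΔNLS line. The groups were well apart, and the log2 fold change was -0.43 (standard error 0.07, edgeR's adjusted p = 0.000108). KEAP1 stood at 224, 233 and 222 CPM in the WT line and at 301, 260 and 276 CPM in the ΔNLS line (0.31, standard error 0.07, adjusted p = 0.00223). Its transcript has 60.2% GC, and with GC and length offsets its value was 0.20 and still called (adjusted p = 0.00538).

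NFE2L2 stood at 171, 172 and 160 CPM in the WT line and at 141, 152 and 146 CPM in the ΔNLS line, and the log2 fold change was -0.18 (standard error 0.07, edgeR's adjusted p = 0.0396). TXNRD1 stood at 174, 177 and 180 CPM in the WT line and at 155, 157 and 155 CPM in the ΔNLS line (-0.18, standard error 0.06, adjusted p = 0.0330). For both genes the lines did not overlap, yet the changes were small and the calls were close to the threshold. With GC and length offsets TXNRD1 stayed called (-0.14, adjusted p = 0.0309) and NFE2L2 did not (-0.11, adjusted p = 0.109). Both calls were lost without a filter on low counts (adjusted p = 0.0566 for NFE2L2 and 0.0667 for TXNRD1) and in a fit of all 15 libraries (0.0610 and 0.0815). Leaving out ΔNLS replicate 1, ΔNLS replicate 3 or WT replicate 1 ended both calls, and leaving out ΔNLS replicate 2 or WT replicate 3 ended that of TXNRD1, with adjusted p from 0.0512 to 0.129.

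HMOX1 stood at 17.6, 20.2 and 18.6 CPM in the WT line and at 16.3, 15.4 and 18.1 CPM in the ΔNLS line, which overlapped (log2 fold change -0.17, standard error 0.09, edgeR's adjusted p = 0.157). OSGIN1 stood at 7.50, 7.90 and 8.5 CPM in the WT line and at 6.84, 6.41 and 6.26 CPM in the ΔNLS line, apart but not called (-0.28, standard error 0.11, adjusted p = 0.0567). With GC and length offsets both were called, HMOX1 at -0.24 (adjusted p = 0.0286) and OSGIN1 at -0.42 (adjusted p = 0.00395). The 2 subunits of glutamate-cysteine ligase overlapped between the lines. GCLC had a log2 fold change of -0.13 (adjusted p = 0.199) and GCLM of -0.09 (adjusted p = 0.407). SRXN1, at 7.80, 19.3 and 17.4 CPM in the WT line and 25.1, 13.4 and 8.78 CPM in the ΔNLS line, differed by 0.10 with a standard error of 0.52.

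Whether the ΔNLS line and cSNX1.3 moved a gene differently was tested as an interaction over all 15 libraries. KEAP1 was the 1 member of 9 called, against 23.1% of 16524 genes. Its ΔNLS effect exceeded its cSNX1.3 effect by 0.43 (standard error 0.13, edgeR's adjusted p = 0.0158), as it was higher in the ΔNLS line and had a value of -0.12 with cSNX1.3. The call was lost without ΔNLS replicate 1 (0.38, adjusted p = 0.0530). For NQO1 the difference was -0.15 (standard error 0.12, adjusted p = 0.414) and for NFE2L2 0.01 (standard error 0.10, adjusted p = 0.974). For OSGIN1 it was -0.48 (standard error 0.18, adjusted p = 0.0527), and the call was made with DESeq2 (-0.49, adjusted p = 0.0475), with its size factors in edgeR (-0.49, adjusted p = 0.0482), with at least 10 counts in every library (-0.47, adjusted p = 0.0462), with GC and length offsets (-0.60, adjusted p = 0.0102), without EGF replicate 2 (-0.61, adjusted p = 0.0111) and without cSNX1.3 replicate 3 (-0.54, adjusted p = 0.0434). For GCLM it was -0.34 (standard error 0.14, adjusted p = 0.0766), and the call was made with the offsets (-0.29, adjusted p = 0.0453) and without ΔNLS replicate 2 (-0.43, adjusted p = 0.0347).

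Across the 5 groups, NFE2L2 had the clearest order of levels, with erlotinib highest at 220 ± 18.9 CPM (SD, n = 3 in this paragraph), then the WT line at 167 ± 6.71, the ΔNLS line at 147 ± 5.24, EGF at 127 ± 1.34 and cSNX1.3 at 111 ± 1.17, and no neighbours overlapped. For NQO1 the order was erlotinib, WT line, EGF, ΔNLS line and cSNX1.3, and the last 3 overlapped with their neighbours. For HMOX1 it was erlotinib, WT line, ΔNLS line, EGF and cSNX1.3, and the 2 lines overlapped. For KEAP1 erlotinib stood apart and the neighbours below it overlapped. GCLM was highest with erlotinib and next with cSNX1.3, both apart from EGF. Levels of the drug groups and the lines come from separate experiments, so experiment and cell line cannot be told apart between them.

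Likeness of pattern was measured as the root mean square difference of centred log2 CPM over the 15 libraries, among 13402 genes whose mean reached 1 CPM. HMOX1 was most like TCTA (0.08), and NFE2L2 was the second of its 13401 other genes (0.13). In the other direction HMOX1 ranked 48 for NFE2L2, and NQO1 ranked 98. The remaining members were farther from NFE2L2. GCLC ranked 630, KEAP1 1546, TXNRD1 3621, GCLM 3908, OSGIN1 9911 and SRXN1 13070. The nearest gene was PEX11A to NFE2L2 (0.08), SDC1 to KEAP1 (0.10), PLPP3 to NQO1 (0.09), GOLM2 to GCLC (0.07), PTPN2 to GCLM (0.10), PSME4 to TXNRD1 (0.05) and GATA6 to OSGIN1 (0.10). SRXN1 had no neighbour as close by this measure, which is not scaled for the size of a gene's changes. The most like it were TGFBR3L (0.25), GET4 (0.27) and GPS2 (0.32). GET4 shared the scatter within groups, at 12.6, 25.8 and 28.1 CPM with EGF and 18.5, 8.07 and 9.76 CPM with erlotinib. So did TGFBR3L, at 0.778, 1.78 and 2.04 CPM with EGF and 1.56, 0.449 and 0.667 CPM with erlotinib. These values share library and depth and are descriptions only.

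Of 60 further genes of the pathway and its surroundings, listed by role from general knowledge, 59 were matched and 56 were tested in the drug comparisons. With erlotinib 34 of 56 were called (60.7%, against 44.0% of all genes), 21 of them higher and 13 lower, where 21.2% of all genes were called lower. The median was 0.06, against 0.01 over all genes. The list was chosen with earlier results of these data known, and its genes were not matched in level to all genes tested. Its shares beside those of all genes are therefore description only. Of its partners and regulators 4 of 10 were lower and 1, the autophagy receptor SQSTM1, which binds KEAP1, was higher at 0.39. The small MAF genes, whose products pair with NRF2 on DNA, were all lower with erlotinib, with log2 fold changes of -1.67 for MAFF, -0.87 for MAFG and -0.47 for MAFK. MAFF stood at 38.2, 33.1 and 38.1 CPM with EGF, 12.4, 9.30 and 11.9 CPM with erlotinib, and 49.4, 62.4 and 57.0 CPM with cSNX1.3, 3 groups that did not overlap. BACH1, a repressor that competes for the same element, did not pass (-0.25, edgeR's adjusted p = 0.0504).

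The counts by role with erlotinib stand beside 22.8% of all genes called higher and 21.2% called lower. Glutathione genes were called higher in 6 of 11, none lower. SLC7A11, the cystine transporter, rose by 0.91 (log2 fold change, standard error 0.13), its partner chain SLC3A2 by 0.56 and the peroxidase GPX4 by 0.75. Among aldo-keto reductases and detoxification enzymes 8 of 12 were higher and 1 lower. The 3 largest rises of the list were here, ALDH3A1 at 4.49 (standard error 0.22), AKR1C3 at 1.57 (0.32) and AKR1C2 at 1.13 (0.12), and AKR1C genes are near-identical copies whose reads may be shared or left out. AKR1C3 was low, at 0.91 CPM with EGF and 2.64 CPM with erlotinib. ALDH3A1, an aldehyde dehydrogenase, stood at 0.573, 0.309 and 0.371 CPM with EGF and at 9.46, 9.18 and 9.23 CPM with erlotinib. Efflux pumps were lower in 4 of 5, ABCC3 by -1.12 and ABCC4 by -0.99. Of the NADPH supply genes 2 of 6 were higher, near the share of all genes, IDH1 at 0.37 and ME1 at 0.32. Of the genes for haem and iron 3 of 6 were higher and 2 lower, with the ferritin light chain FTL at 0.79. FTL also has near-identical copies or pseudogenes, so its value is uncertain. Thioredoxin TXN fell by 0.42. HMOX2, the constitutive haem oxygenase and not held to be an NRF2 target, fell by 1.25 where HMOX1 rose. HMOX2 was low in both groups, at 4.07 CPM with EGF and 1.67 CPM with erlotinib.

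NQO1 and ALDH3A1 are also textbook targets of the aryl hydrocarbon receptor (AHR), so 4 other AHR targets were read beside them. With erlotinib CYP1A1 rose by 4.89 (log2 fold change, standard error 0.28, edgeR's adjusted p = 2.45e-09) and CYP1B1 by 2.13 (standard error 0.10, adjusted p = 1.83e-10), whereas TIPARP had a value of -0.23 (adjusted p = 0.110), and AHRR had at most 6 counts in any library. CYP1A1 stood at 0.450, 0.116 and 0.260 CPM with EGF and at 7.61, 9.05 and 7.69 CPM with erlotinib. With cSNX1.3 CYP1B1 fell by 0.44 (adjusted p = 0.00891) and TIPARP rose by 0.43 (adjusted p = 0.0269). The part of AHR in the NQO1 result was not tested.

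With cSNX1.3 5 of 56 listed genes were called, 8.93% against 6.07% of all genes. GLRX, a glutaredoxin, rose by 0.76 (standard error 0.13, edgeR's adjusted p = 0.00227) and MAFF by 0.63 (standard error 0.12, adjusted p = 0.00332). Lower were AKR1C2 at -0.47, AKR1B10 at -0.42 and IDH1, an NADP-dependent isocitrate dehydrogenase, at -0.39. AKR1C2 and AKR1B10 have near-identical copies or pseudogenes, so their values are uncertain. With erlotinib these 5 had values of 0.25 for GLRX, not called, and, all called, -1.67 for MAFF, 1.13 for AKR1C2, 0.41 for AKR1B10 and 0.37 for IDH1.

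In ΔNLS vs. the WT line 33 of 57 listed genes were called (57.9%, against 41.4% of all genes), 11 higher and 22 lower, with a median of -0.12. The largest rises were those of glutathione genes, but in this role 5 of 12 were higher and 3 lower, with a median of 0.07. SLC7A11 stood at 13.7, 11.8 and 12.5 CPM in the WT line and at 18.3, 23.7 and 22.8 CPM in the ΔNLS line, which is 0.78 as log2 fold change (standard error 0.11, edgeR's adjusted p = 2.5e-05). SLC3A2 rose by 0.78 (standard error 0.07) and GSTP1, a glutathione transferase, by 0.75 (standard error 0.10). The largest falls were those of ALDH3A1 at -1.29 (standard error 0.13), the glutathione gene GLRX at -1.03 (0.12) and the efflux pump ABCC2 at -1.03 (0.14). Of the haem and iron genes 4 of 6 were lower and 1 higher. FTH1 and FTL are among these 6 and have near-identical copies or pseudogenes, so their values are uncertain. Of the small MAF genes MAFG was higher, at 0.44, while MAFF and MAFK did not pass. BACH1 was lower, at -0.39, and CUL3, the scaffold of the ligase that KEAP1 serves, was lower at -0.17.

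**Figure D3:**
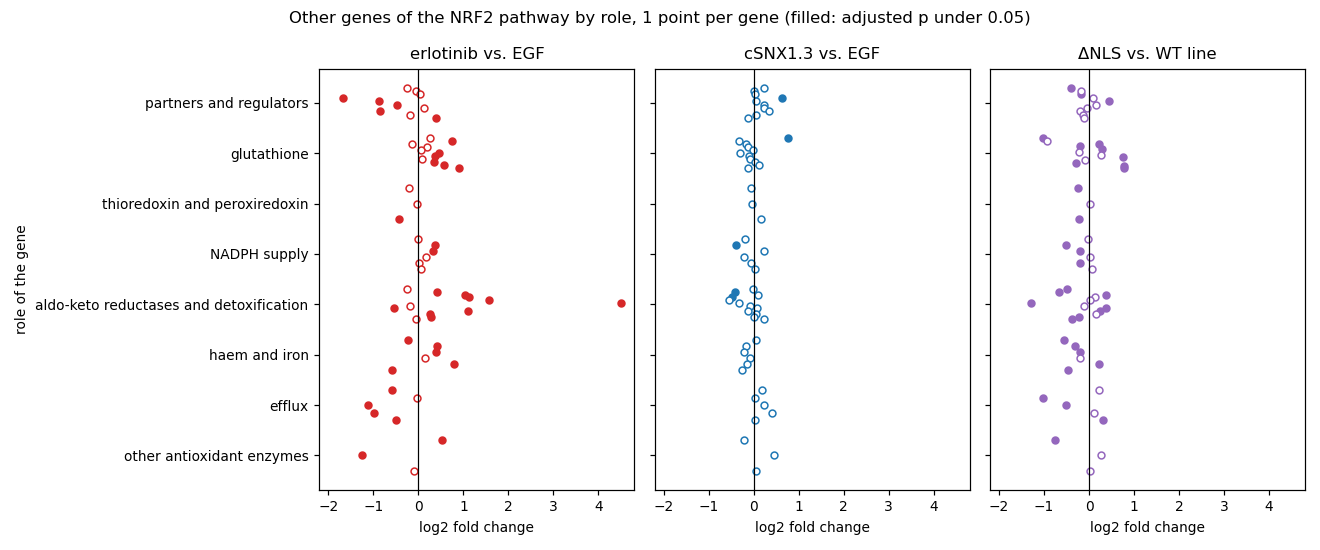
Fitted log2 fold changes (horizontal axis) of the tested genes of the wider NRF2 pathway list, 1 point per gene, in rows by role, for erlotinib vs. EGF, cSNX1.3 vs. EGF and ΔNLS vs. the WT line. Filled points passed an adjusted p of 0.05, which were 34 of 56, 5 of 56 and 33 of 57 genes, and the point far to the right is ALDH3A1 at 4.49.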

How the data were processed

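The deposited values were raw counts: per their methods, the authors used TrimGalore, STAR on GRCh38 and featureCounts (unstranded, paired-end), and normalized nothing before deposit. Their notes name DESeq2 and hg38, and the annotation release is not given in the sources used here. Here 61399 of 61552 identifiers were matched to GENCODE 44, and SOD2 was not analysed. Groups came from the sample labels. Counts were analysed in R 4.3.3 with edgeR 4.0.16 (TMM, filterByExpr by group, robust quasi-likelihood F test, two-sided, Benjamini-Hochberg over all genes tested, threshold 0.05) in fits of the 9 drug libraries, the 6 line libraries and, for the interaction, all 15. The test was tested on simulated data. Levels are CPM on the TMM scale of all 15 libraries, and likeness used a prior count of 2. Every pair of replicates differed by more than sampling noise (chi-square per degree of freedom 2.69 to 24.5 over 15 pairs). The named genes are the 9 members, EGFR, the 3 largest rises and falls among called listed genes, and genes given to describe a role, the last chosen after their values were seen. Members and lists were chosen with earlier results of these data known. Alternatives were DESeq2 1.42.0, its size factors, other filters, other sets of libraries, the replicate block, a threshold of 0.01 and leaving out each library. Offsets for GC content and length were chosen after seeing the data.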

Additional observations from a re-analysis of the deposited data

Results flagged for a closer look

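KEAP1 differed between the ways of acting on nuclear EGFR: its ΔNLS effect minus its cSNX1.3 effect was 0.43 on the log2 scale (standard error 0.13, adjusted p = 0.0158 by edgeR with Benjamini-Hochberg adjustment), and over the alternatives the adjusted p ranged from 0.00514 to 0.0530. In this contrast 23.1% of all 16524 genes tested were called, and KEAP1 was the 1 member of 9. With GC and length offsets its value was 0.32 and was still called (edgeR's adjusted p = 0.0113). All 3 ΔNLS libraries were above all 3 WT libraries, and 2 of 3 cSNX1.3 libraries were below the lowest EGF library. The ΔNLS line was compared with a WT line in which endogenous EGFR was also knocked down, and the peptide with cells given EGF alone, so the difference in background and the difference in effect cannot be told apart.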

How the results depend on the processing

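Of 657 values of members under an alternative, 595 kept direction and side of the threshold, 25 lost the call, 14 gained it and 23 changed sign. With erlotinib the count of members called was 5 to 7 when single libraries were left out. Its calls over all genes were then 5661 to 6773, from 6932. For cSNX1.3 vs. EGF it was 0 to 1 when single libraries were left out and 1 with GC and length offsets. Its listed genes called were 3 in a fit of only the 2 groups, 8 in a fit of all 15 libraries, 8 with the offsets, 2 at a threshold of 0.01 and 2 to 6 without single libraries, and its calls over all genes were 1444 in all 15 libraries, 1659 with the offsets, 470 at 0.01 and 526 to 892 without single libraries, from 956. For ΔNLS vs. the WT line members called were 2 without a filter, in all 15 libraries, with the replicate block and at 0.01, and 2 to 4 without single libraries, while listed genes were 19 at 0.01 and 21 to 29 without single libraries. Its calls over all genes were 5191 to 6559 without single libraries, from 6538. For the interaction members called were 2 with DESeq2, with its size factors and with at least 10 counts in every library, 3 with the offsets, 0 at 0.01 and 0 to 2 without single libraries. Its calls over all genes were 2359 at 0.01 and 3106 to 4167 without single libraries, from 3819. The causes were not tested.

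Sign changes were in values near 0, except for SRXN1 in ΔNLS vs. WT, which was -0.40 without ΔNLS replicate 1 and -0.20 without WT replicate 1. TXNRD1 with erlotinib was 0.017 with at least 10 counts and -0.058 to 0.053 without single libraries, and in cSNX1.3 vs. erlotinib -0.10 to 0.011. In ΔNLS vs. WT, GCLM was 0.014 with the offsets and SRXN1 -0.40 to 0.39 without single libraries. In the interaction NFE2L2 was -0.0024 with DESeq2, -0.0013 with its size factors and -0.033 to 0.032 without single libraries, GCLC -0.0081, -0.0068, -0.00019 without a filter and -0.076 to 0.067, and HMOX1 -0.076 to 0.041.

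Replicate numbers did not pair the libraries: same-numbered libraries had deviations correlated between -0.23 and 0.29 over 12 pairs, over 0.1 in 4, and 8 of 24 checks matched best with their own number. Calls over all genes under the replicate block are not printed here, so the member counts under it stand without that share. With the replicate block the members called were 6 for erlotinib, 0 for cSNX1.3, 8 for the direct contrast, 2 for ΔNLS vs. WT and 1 for the interaction. For ΔNLS vs. WT these 2 were KEAP1 and NQO1, while NFE2L2 had an adjusted p of 0.0692 and TXNRD1 of 0.0686 under the block.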
